A study of Mus musculus with 87 samples.

Results

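The 8 genes examined here, Stra8, Dmrt1, Dazl, Ddx4, Sycp1, Sycp3, Mael and Dppa3, act in germ cells and were read by symbol among the 26171 gene symbols of each comparison. They were chosen by the log2 fold changes of neural precursors whose Suz12 exon 4 was deleted, in which Stra8 and Dmrt1 fell, so that comparison only describes them. Suz12 is a core subunit of Polycomb repressive complex 2 (PRC2), and the study compared forms of Suz12 with and without its exon 4 in mouse embryonic stem cells (ESC) and in neural precursors (NP) made from them. RNA was sequenced in 32 samples and chromatin was immunoprecipitated in 55 ESC samples, of which 2 lists of regions were used here. All groups were described as the 129-B13 line, and it was not given how many clones stood behind a group.

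ESC were grown in 20% serum with LIF and NP were harvested at day 8 after retinoic acid at day 4. The ESC groups were wild type (WT, 3 libraries), exon 4 constitutively included (CSex4, 2), exon 4 deleted (Deltaex4, 2) and full Suz12 knock-out (KO, 3). They also held the knock-out rescued with the long isoform (KO-L, 2) or the short isoform (KO-S, 2), and the same rescues carrying the 3D mutation at position 196 (KO-L3D and KO-S3D, 2 each). The mutated rescues were placed in the Rosa26 locus. The NP groups were WT (4 libraries) and, with 2 each, KO, KO-L, KO-S, CSex4 and Deltaex4. The labels do not say whether libraries of a group came from separate cultures. A deposited p-value thus measures a spread that may be technical, between these libraries or, where the authors paired them, between pairs of them.

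Germ cells form from pluripotent cells of the early embryo and later enter meiosis, and outside the germline their genes are kept silent by DNA methylation and by repressor complexes such as the noncanonical Polycomb complex that contains E2F6, PCGF6, MGA and MAX. Several germline genes are nevertheless transcribed at a low level in ESC in serum. Retinoic acid, the signal used here to make neural precursors, is also the signal that induces Stra8 and with it entry into meiosis. PRC2 methylates lysine 27 of histone H3 (H3K27me3), a mark of silenced promoters.

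Promoter letters were taken from RefSeq (GRCm38.p6), where 6 of the 8 genes had an entry of 300 bases, and 280 bases of each shown entry are printed, from 250 before the start to 30 after it. Stra8 is shown because it is the retinoic acid target, Sycp1 and Mael because their starts lie in regions listed by the authors, and Dazl because it rose in ESC KO. Capitals mark TCCCGC (read as GCGGGA on the other strand), the core of the E2F6 site, CACGTG, the E-box bound by MAX and MGA, and AGGTCA, the core element of retinoic acid receptor sites.
Stra8 (chr6:34920698-34920977, plus strand): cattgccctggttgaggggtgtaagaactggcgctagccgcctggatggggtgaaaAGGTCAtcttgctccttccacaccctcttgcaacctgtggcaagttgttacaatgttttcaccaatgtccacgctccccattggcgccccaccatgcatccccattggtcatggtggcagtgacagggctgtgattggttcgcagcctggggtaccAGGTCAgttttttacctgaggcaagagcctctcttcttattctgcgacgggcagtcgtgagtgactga
Sycp1 (chr3:102936071-102936350, minus strand): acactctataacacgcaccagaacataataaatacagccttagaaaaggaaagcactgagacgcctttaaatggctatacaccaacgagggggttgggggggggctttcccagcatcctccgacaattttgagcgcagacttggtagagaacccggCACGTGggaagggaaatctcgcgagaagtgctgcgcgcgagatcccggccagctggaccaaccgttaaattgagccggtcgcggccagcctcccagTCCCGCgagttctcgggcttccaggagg
Mael (chr1:166238715-166238994, minus strand): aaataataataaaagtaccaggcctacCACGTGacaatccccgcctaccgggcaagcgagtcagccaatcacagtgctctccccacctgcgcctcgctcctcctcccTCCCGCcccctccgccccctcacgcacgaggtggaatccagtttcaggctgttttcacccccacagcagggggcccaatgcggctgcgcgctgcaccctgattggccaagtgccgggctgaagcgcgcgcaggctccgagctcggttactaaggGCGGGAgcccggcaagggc
Dazl (chr17:50293591-50293870, minus strand): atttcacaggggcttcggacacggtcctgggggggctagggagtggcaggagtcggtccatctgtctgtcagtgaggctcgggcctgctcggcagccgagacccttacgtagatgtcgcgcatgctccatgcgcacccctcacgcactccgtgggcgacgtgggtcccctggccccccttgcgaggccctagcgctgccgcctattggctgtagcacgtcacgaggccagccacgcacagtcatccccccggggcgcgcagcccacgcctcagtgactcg
The 300 bases of Stra8 held 2 AGGTCA elements and neither of the other motifs. The Mael entry held 2 copies of the E2F6 core and 1 E-box, and the Sycp1 entry held 1 of each. Ddx4 also held 1 of each, and Sycp3 held 1 E2F6 core, 2 E-boxes and 1 AGGTCA. Dazl held none of the 3 motifs. Among 32851 promoter entries of the same length, 20.0% held the E2F6 core, 7.15% the E-box and 16.3% the AGGTCA element, each searched on both strands. The pair CG occurred 28 times in the Dazl entry, 38 times in Ddx4, 24 in Mael, 21 in Sycp1, 15 in Sycp3 and 10 in Stra8, against a median of 7 over all entries.

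The region lists were made by the authors with DiffBind and name WT in their track line, which does not say the other group or a direction. The submitters' processing notes name mm10 among the builds, and distances to RefSeq starts assume it. The start of Dazl (chr17:50293620) lay inside an H3K27me3 region of 1941 bp, that of Mael (chr1:166238744) inside one of 3716 bp, that of Sycp1 (chr3:102936100) inside one of 5435 bp and that of Ddx4 (chr13:112652310) inside one of 6158 bp. One end of Dmrt1 (chr19:25505618) lay inside an H3K27me3 region of 6555 bp, and the nearer end of Dppa3 was 2217 bp from one. The H3K27me3 region nearest to the Stra8 start was 138 kb away, and the one nearest to the Sycp3 start was 99.7 kb away. H3K27me3 regions thus lay within 2500 bp of 6 of the 8 genes, where 18.1% of 17492 protein-coding genes had one. A Suz12 region lay at the starts of Sycp1 and Ddx4 and at the end of Dmrt1, 3 of the 8 genes, where 9.28% of coding genes had one within that distance. For Dmrt1 and Dppa3 either gene end was allowed, which is a looser measure than the start used for the other genes.

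The authors' tables give 1 value per comparison, so the reads of each library were worked out from the deposited mean of scaled reads, which is a sum of whole reads with fixed weights. This had a single solution for all 8 genes in all 32 libraries. Reads were worked out for listed genes only, so the share of all genes whose libraries do not overlap is not known. Values below are these reads scaled by library size, called scaled reads, and the 2 cell types were scaled apart (29341167 scaled reads per library for ESC and 28959663 for NP). Gene lengths were not used, so levels are compared within a gene and not between genes. The tables are named as paired by the authors, whereas the overlaps of libraries and the ratios of recovered means given below ignore pairs. In the 6 ESC tables with 2 libraries beside the 3 of WT, genes whose only read lay in WT library a had a median log2 fold change from -0.23 to 0.06, against -1.53 to -1.21 for those read only in b or c. The deposited effects of CSex4, Deltaex4, KO-L, KO-S, KO-L3D and KO-S3D in ESC thus took little from WT library a. In bulk RNA, fewer cells of a type and less RNA per cell cannot be told apart. Suz12 itself stood at -1.82 ± 0.22 (log2 fold change over WT, SE) in ESC KO and at -2.14 ± 0.33 in NP KO in the authors' deposited tables (adjusted p 8.21e-15 and 5.63e-09, DESeq2). In ESC KO-L3D it was also low in the authors' deposited table, at -1.85 ± 0.28 (adjusted p 3.84e-09), whereas KO-S3D stood at -0.06 ± 0.42.

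**Figure D1:**
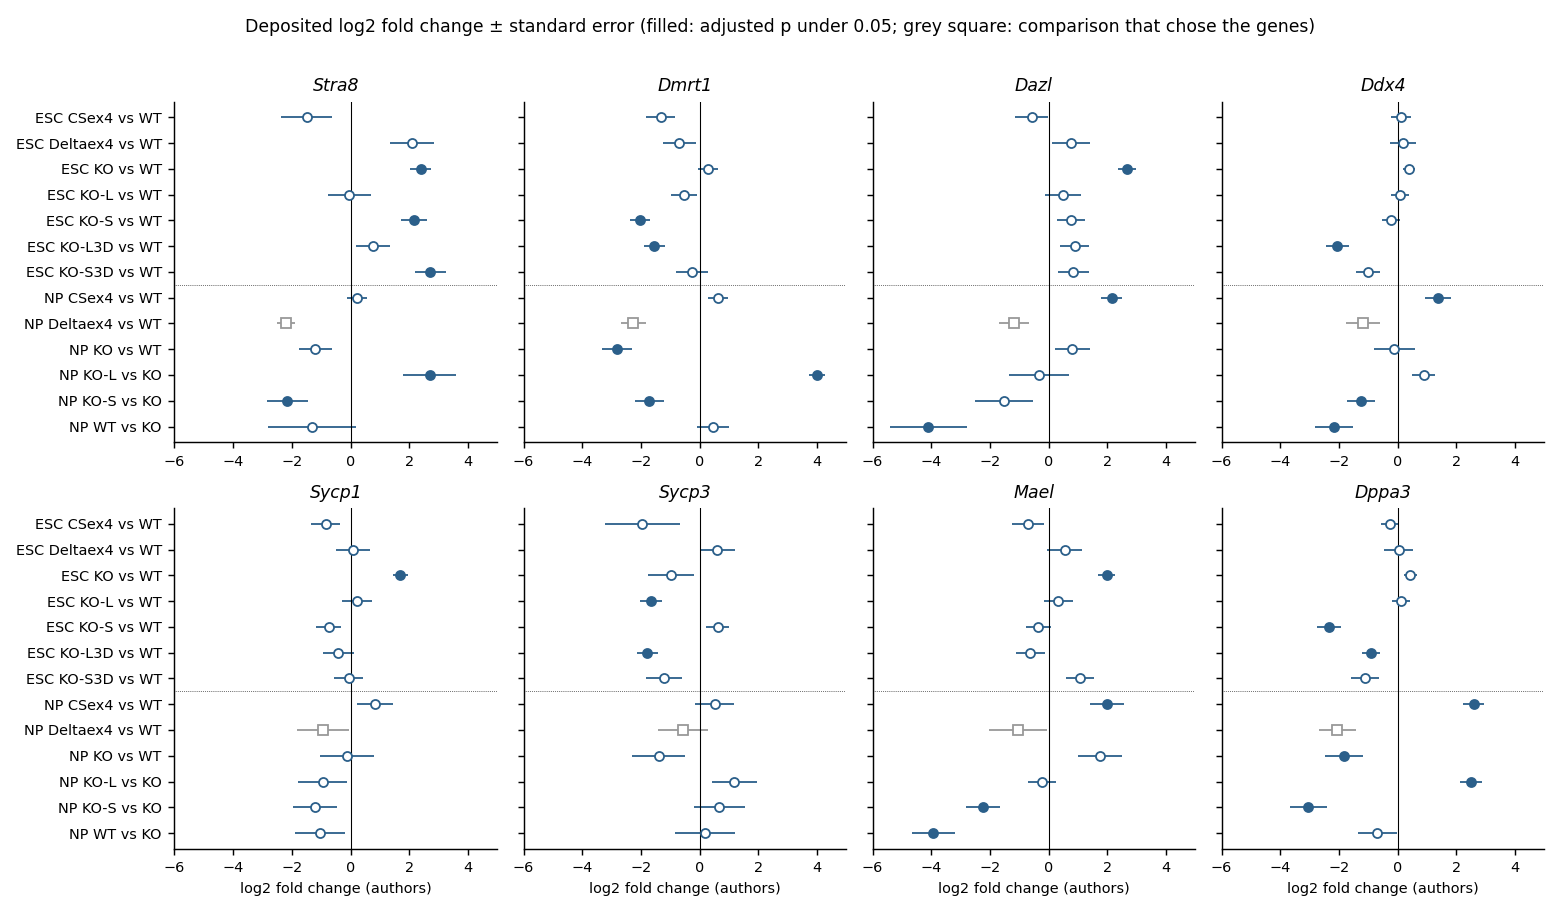
Log2 fold change with its standard error for the 8 germline genes (panels) in the authors' 13 deposited comparisons (vertical axis), ESC above the dotted line and NP below it. Filled points had an adjusted p under 0.05, and the grey squares show the comparison that chose the genes. Stra8 is filled and positive in ESC KO, KO-S and KO-S3D, and Dppa3 is filled and positive in NP CSex4 and in NP KO-L vs KO.

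The comparison that chose the genes was NP Deltaex4 against WT replicates 1 and 2. Stra8 had 3065 and 1379 scaled reads in the Deltaex4 libraries and 13721 and 6481 in these WT libraries. Dmrt1, a transcription factor of germ cells and of the testis, had 591 and 147 against 1907 and 1052. Dppa3, a maternal and primordial germ cell factor, had 319 and 39.0 against 633 and 353. In the authors' deposited table the log2 fold changes were -2.20 ± 0.30 for Stra8, -2.26 ± 0.42 for Dmrt1, and -2.05 ± 0.64 for Dppa3, the nearest gene that missed the adjusted p of 0.05. The other 5 genes lay between -1.18 ± 0.50 (Dazl) and -0.57 ± 0.86 (Sycp3) in the authors' deposited table. All 8 values were negative, and 2 of the 8 genes were called lower, where 0.0520% of 17315 genes were.

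The other WT libraries held fewer germline reads. WT replicates 3 and 4, which the authors compared in another table, had 916 and 2939 scaled reads of Stra8 and 216 and 354 of Dmrt1. Against all 4 WT libraries the Deltaex4 libraries overlapped for 8 of 8 genes, whereas they lay below WT replicates 1 and 2 for 7. WT replicates 1 and 2 lay above replicates 3 and 4 for all 8 genes, with a ratio of means from 2.28 for Sycp1 to 10.02 for Dazl. How many of all genes overlapped or separated in these ways is not known. Pluripotency markers moved with this split. Pou5f1, the central transcription factor of pluripotent cells, had 2014 and 769 scaled reads in WT replicates 1 and 2 and 200.3 and 202 in replicates 3 and 4. Neural precursor markers ran the other way, most of all in library a (a and b are replicates 1 and 2). They summed to 12059.6 scaled reads in library a, the highest WT library for all 8 germline genes. Library b had 34921, below but nearer to the 42299 and 39137 of libraries c and d. The 2-cell-like genes summed to 2944 and 1611 in a and b and to 206 and 381 in c and d. The part of these markers in the germline values was not tested, and the labels do not name a batch for either pair.

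**Figure D2:**
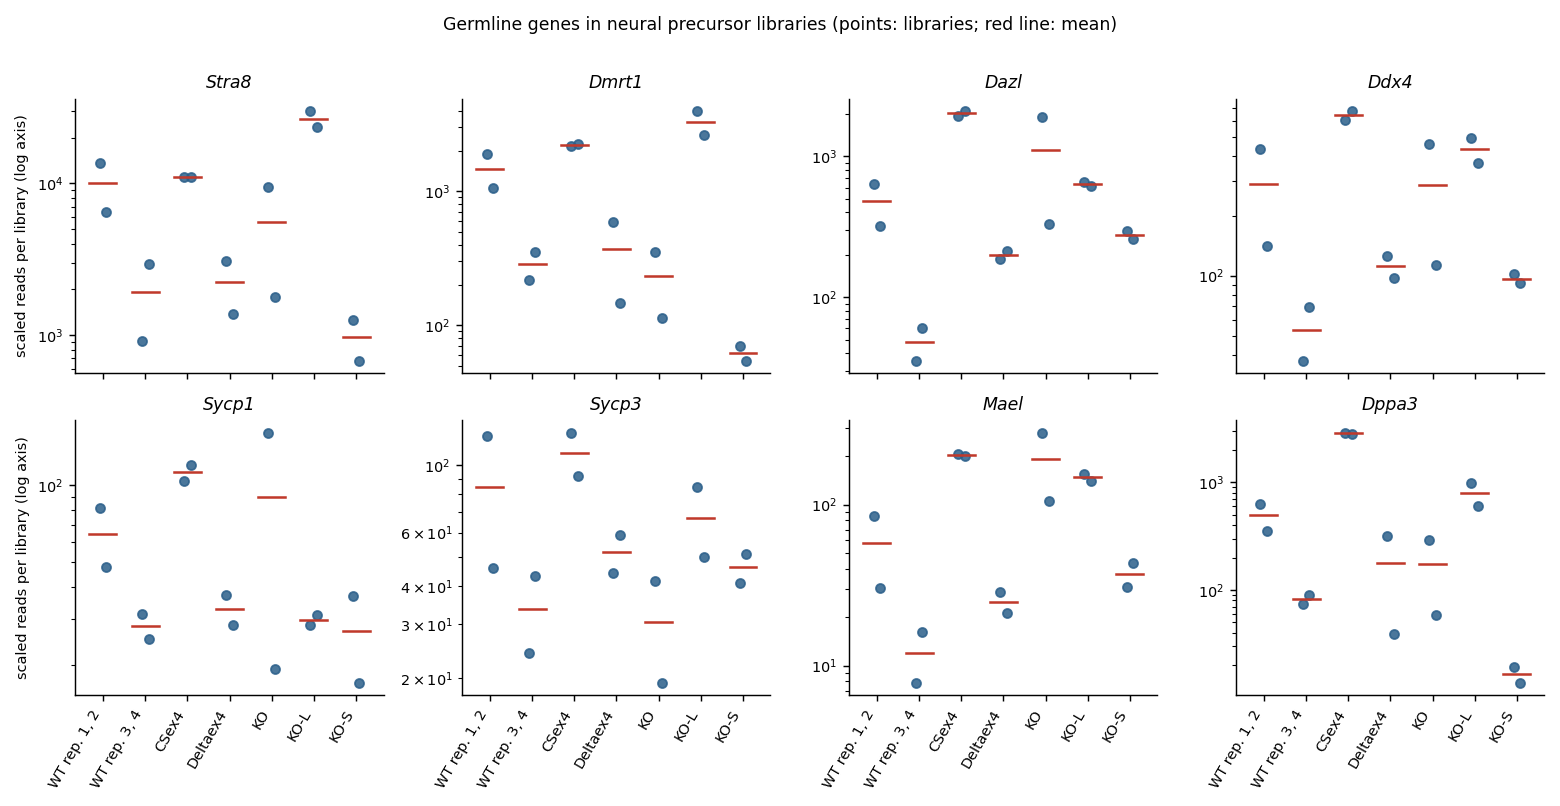
Scaled reads per NP library (vertical log axis) for each germline gene by group, with points for libraries and a red line at the group mean. WT replicates 1 and 2 lie above replicates 3 and 4 in each panel, the CSex4 libraries lie close together, and the KO libraries lie far apart, from 1775 to 9409 for Stra8.

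In ESC KO 4 of the 8 genes rose, among them the RNA-binding protein gene Dazl and the piRNA pathway gene Mael. The call rate for rises in that table was 11.0% of 16918 genes, and 0 of the 8 genes were called lower, where 7.27% were. Dazl, which controls translation in germ cells, had 1224, 811 and 1276 scaled reads in the KO libraries and 173, 129 and 219.6 in the WT libraries. Mael, needed to silence transposons in the male germline, had 1387, 1268 and 1248 against 275, 238 and 554. The groups did not overlap for either gene. Sycp1, which forms the transverse filaments of the synaptonemal complex between paired chromosomes, had 945, 937 and 708 against 206, 238 and 375. Stra8 had 444, 364 and 317 against 44.8, 64.9 and 119. All KO libraries of both genes again lay above all WT libraries. The authors' deposited table gave log2 fold changes of 2.67 ± 0.30 for Dazl (adjusted p 1.92e-16), 2.39 ± 0.37 for Stra8 (5.51e-09), 1.97 ± 0.29 for Mael (4.02e-10) and 1.70 ± 0.25 for Sycp1 (1.60e-09), all by DESeq2.

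The other 4 genes were not called in ESC KO. Ddx4, the RNA helicase of germ cell granules, had 1405, 1221 and 1209.5 scaled reads in KO and 909.9, 1006 and 1016 in WT, which did not overlap. Its log2 fold change in the authors' deposited table was 0.39 ± 0.20 (adjusted p 0.170, DESeq2). Dmrt1 stood at 0.29 ± 0.35 and Dppa3 at 0.43 ± 0.23 in the authors' deposited table (DESeq2, adjusted p 0.633 and 0.187). Sycp3, of the lateral elements of the synaptonemal complex, spread widely in WT, at 1027, 574 and 2425 scaled reads, and had 542, 427 and 823 in KO. Its authors' deposited value was -0.97 ± 0.78 (adjusted p 0.442, DESeq2). WT library c, with 2425 for Sycp3, was also the highest WT library for Stra8, Dmrt1, Dazl, Ddx4, Sycp1 and Mael and the lowest for Dppa3. Without it the log2 ratios of the means of recovered reads in KO to WT were 2.77 for Stra8, 2.87 for Dazl, 1.96 for Sycp1 and 2.34 for Mael, each larger than with it.

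Genes of the 2-cell-like state, a rare state of ESC, were high in the same KO libraries. The 7 of 8 such genes whose reads were recovered in ESC summed to between 1112 and 1823 scaled reads in KO and to between 6.72 and 24.8 in WT. All 8 were called higher in the authors' deposited table (DESeq2), from Zfp352 at 4.74 ± 1.09 to Tcstv3 at 7.98 ± 1.38 on the log2 scale; the Zscan4 and Tcstv genes have near-identical copies, so reads among them are uncertain. Of 7 pluripotency markers, 3 were called higher and 0 lower in ESC KO, where 11.0% and 7.27% of all genes were. The higher ones were Klf4 (1.46 ± 0.23), Nanog (1.28 ± 0.20) and Tfcp2l1 (0.84 ± 0.17) in the authors' deposited table. The part of the 2-cell-like genes and of these markers in the germline rises was not tested. The markers of gonadal somatic cells, Sox9, Amh, Nr5a1, Wt1, Gata4, Star, Cyp17a1 and Foxl2, had 0 calls in either direction, and the 7 recovered ones summed to between 224 and 302 scaled reads in KO against 142 to 305 in WT.

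**Figure D3:**
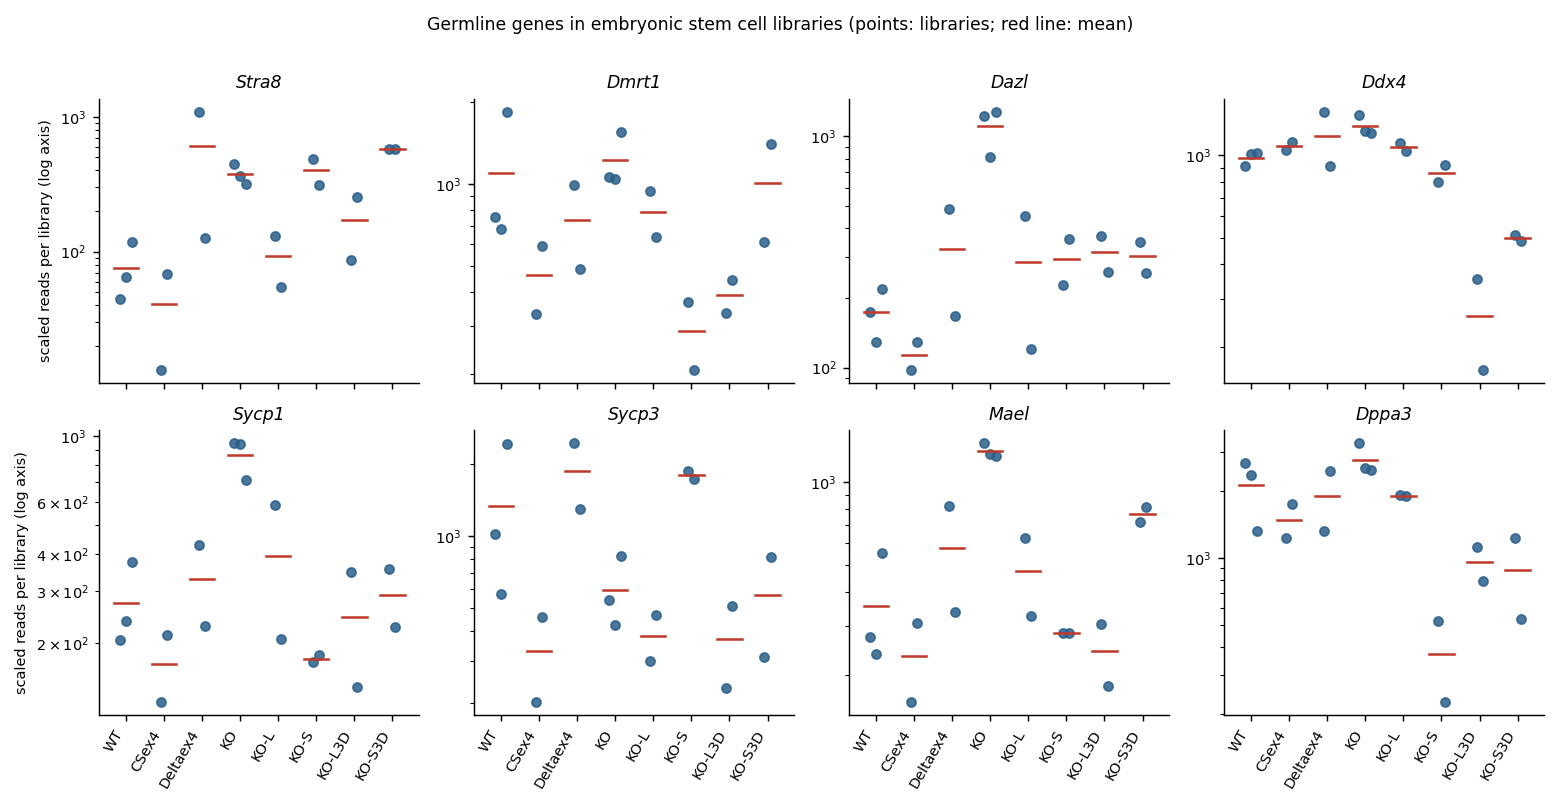
Scaled reads per ESC library (vertical log axis) for each germline gene by group, with points for libraries and a red line at the group mean. The KO libraries lie above the WT libraries for Stra8, Dazl, Ddx4, Sycp1 and Mael, and the KO-S libraries lie below them for Dppa3.

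With the long isoform restored in ESC, Stra8 had 131 and 54.8 scaled reads, Dazl 454 and 120.4, and Mael 630.0 and 327, which overlapped WT for all 3 genes. Sycp3 was the 1 gene called in KO-L, where 0.771% of 13880 genes were called lower, at 300.04 and 468 scaled reads. Its log2 fold change in the authors' deposited table was -1.65 ± 0.39 (adjusted p 0.00283, DESeq2). Without WT library c the log2 ratio of its recovered means moved from -1.81 to -1.06. The KO-L library with the higher Dazl also held more 2-cell-like reads, 689.8 against 54.8 in the other.

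With the short isoform restored, 3 genes were called. Stra8 stayed above WT in KO-S, at 487 and 313 scaled reads, and Dmrt1 and Dppa3 fell below it. Dppa3 had 520.5 and 226 against 2681, 2355 and 1326 in WT, and Dmrt1 had 368 and 206 against 755, 683 and 1843. No library of these 3 genes overlapped WT. The authors' deposited table gave 2.16 ± 0.44 for Stra8 (adjusted p 6.34e-05), -2.03 ± 0.33 for Dmrt1 (9.76e-08) and -2.35 ± 0.41 for Dppa3 (9.85e-07), by DESeq2, where 4.28% of 14472 genes were called higher and 3.63% lower. Dazl, at 228 and 361 scaled reads, lay above all WT libraries but was not called (0.77 ± 0.48 in the authors' deposited table, adjusted p 0.395, DESeq2). In these libraries the 2-cell-like genes summed to 2.11 and 1.10 scaled reads, below the WT range. Of the 7 pluripotency markers, 2 were called, both with a rise. Klf4, a naive pluripotency factor, stood at 1.47 ± 0.28 and Tfcp2l1 at 1.05 ± 0.27 (adjusted p 1.08e-05 and 0.00273, DESeq2). The other markers were not called, and the median of the list was 0.03. These values are from the authors' deposited table.

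The 2 rescues were set against each other by the difference of the deposited log2 fold changes over the combined standard error, adjusted over all genes with a mean of at least 10 (Benjamini-Hochberg); the shared WT libraries make this error too large rather than too small. KO-L minus KO-S was 2.47 ± 0.52 (SE) for Dppa3 (adjusted p 2.47e-04) and -2.27 ± 0.56 for Sycp3 (adjusted p 0.00330), so 2 of 8 genes passed, where 3.94% of 14378 genes did. Sycp3 had 1868 and 1740.4 scaled reads in KO-S and 300.04 and 468 in KO-L, which did not overlap. For Stra8 the difference was -2.19 (95% interval -3.87 to -0.52), which missed the threshold after adjustment (0.150). For Dazl it was -0.28 (-1.79 to 1.22) and for Mael 0.68 (-0.60 to 1.96).

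In the libraries labelled KO-L3D, 4 genes fell below WT, where 10.1% of 15275 genes were called lower. Suz12 itself was as low there (-1.85) as in KO (-1.82) in the authors' deposited tables, so the mutation and a low Suz12 level cannot be told apart. Ddx4 had 355 and 165 scaled reads in KO-L3D against 909.9 to 1016 in WT and 1110.5 and 1032 in KO-L. In the authors' deposited table the log2 fold changes were -2.05 ± 0.38 for Ddx4 (adjusted p 3.92e-06), -1.78 ± 0.36 for Sycp3 (2.08e-05), -1.54 ± 0.37 for Dmrt1 (5.58e-04) and -0.90 ± 0.30 for Dppa3 (0.0223), by DESeq2. All KO-L3D libraries of these genes lay below all WT libraries. Without WT library c, the log2 ratio of recovered means moved from -1.85 to -1.11 for Sycp3 and from -1.49 to -0.88 for Dmrt1. For Ddx4, KO-L3D minus KO-L was -2.14 ± 0.49 (adjusted p 0.00137), and 1 of 8 genes passed this test, where 4.88% of 14561 did.

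In the short rescue with the 3D mutation Stra8 was the 1 gene called, at 575 and 573 scaled reads and 2.71 ± 0.53 in the authors' deposited table (adjusted p 7.21e-05, DESeq2). The share of genes called higher there was 2.05% of 14307. The 2-cell-like genes summed to 650.0 and 147 scaled reads in these libraries. Mael, at 719.7 and 811 scaled reads, and Dazl, at 350.2 and 256, lay above WT without being called, with 1.08 ± 0.48 and 0.84 ± 0.53 in the authors' deposited table (adjusted p 0.252 and 0.498, DESeq2). Ddx4, at 511 and 487, and Dppa3, at 1229 and 533, lay below all WT libraries without being called, with -1.02 and -1.12 in the authors' deposited table. None of the 8 genes passed the test of the difference between KO-S3D and KO-S (0.732% of 14483 genes did; 4 of the 8 had an unadjusted p under 0.05), and for Stra8 the interval of the difference was -0.80 to 1.90. None passed between KO-L3D and KO-S3D either (0.0541% of 14798; 2 of the 8 at an unadjusted p under 0.05), with an interval of -3.49 to -0.40 for Stra8. Stra8 was thus at or above 313 scaled reads in each ESC library of KO, KO-S and KO-S3D and at or below 254 in each library of WT, CSex4, KO-L and KO-L3D, while the Deltaex4 libraries, with 126 and 1090.2, lay on either side.

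Neither exon 4 line had a called germline gene in ESC. In CSex4, where 2.41% of 13811 genes were called, 1 of the 8 genes had an unadjusted p under 0.05, Dmrt1 at -1.33 ± 0.48 in the authors' deposited table (adjusted p 0.131, DESeq2). Its libraries had 331 and 593 scaled reads, below all WT libraries. Of the 7 pluripotency markers, Nanog (-1.06 ± 0.33), Esrrb (-1.71 ± 0.38) and Klf4 (-1.23 ± 0.35) were called lower there in the authors' deposited table, and their part was not tested. In Deltaex4, where 0 of 20263 genes (0%) were called, Stra8 had 1090.2 and 126 scaled reads, both above WT. The authors' deposited table gave 2.09 ± 0.76, with an unadjusted p of 0.00571 and an adjusted p of 0.99998 (DESeq2). CSex4 minus Deltaex4 was -3.58 (95% interval -5.84 to -1.32, adjusted p 0.301) for Stra8, and 0 of 8 genes passed, where 0.0766% of 14365 did and Stra8 alone of the 8 had an unadjusted p under 0.05. The Deltaex4 library with 1090.2 reads of Stra8 was also the higher one for Dazl, Sycp1, Sycp3 and Mael, and it held 222 scaled reads of 2-cell-like genes against 8.94 in the other.

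In NP, Dazl, Ddx4, Mael and Dppa3 rose in CSex4, 4 of the 8 genes, where 4.08% of 15603 genes were called higher. Dppa3 had 2868 and 2811 scaled reads in CSex4 and 633, 353, 74.6 and 89.4 in the 4 WT libraries. Dazl had 1947 and 2094 against 637, 321, 35.3 and 60.3, and Mael 205 and 202 against 84.8, 30.2, 7.86 and 16.1. For these genes, and for Ddx4, Dmrt1 and Sycp1, both CSex4 libraries lay above all 4 WT libraries, 6 of 8 genes. The share of all genes with such a separation is not known. The authors' deposited table, which uses WT replicates 1 and 2, gave 2.58 ± 0.35 for Dppa3 (adjusted p 1.13e-10), 2.16 ± 0.36 for Dazl (3.10e-07), 1.98 ± 0.59 for Mael (0.0194) and 1.36 ± 0.44 for Ddx4 (0.0431), by DESeq2. The call of Ddx4 was lost when p-values were adjusted over every gene with a p-value. Leaving out WT library a or b moved the log2 ratio of its recovered means from 1.15 to 2.19 or 0.56, and that of Mael from 1.82 to 2.75 or 1.26.

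Stra8 was not called in CSex4 against WT replicates 1 and 2, the libraries of the comparison that chose the genes. Its CSex4 libraries had 11083 and 11025 scaled reads, between the 13721 and 6481 of these WT libraries. Both lay above the 916 and 2939 of WT libraries c and d, which the CSex4 table does not use. The value in the authors' deposited table was 0.23 ± 0.35 (adjusted p 0.901, DESeq2). Of 12 other genes of retinoic acid response and metabolism, 2 were called lower there and none higher, the binding proteins Crabp1 (-1.37 ± 0.33, adjusted p 0.00127) and Crabp2 (-1.11 ± 0.31, adjusted p 0.0103) in the authors' deposited table. Suz12 itself had 8469 and 9092 scaled reads in the CSex4 libraries, against 5029, 5786, 3587 and 3125 in the 4 WT libraries. The inclusion of exon 4 and a higher Suz12 level thus cannot be told apart there. The CSex4 libraries also held the most reads of pluripotency markers among NP libraries. The 7 markers Pou5f1, Nanog, Zfp42, Esrrb, Tfcp2l1, Klf4 and Sox2 summed to 38938 and 39787 scaled reads there and to between 6602 and 14369.6 in WT, and 5 of the 7 were called higher. All 8 2-cell-like genes were called higher too, and summed to 10695 and 8916 scaled reads against 206 to 2944 in WT. The 7 neural precursor markers summed to 11824 and 11833 against 12059.6 to 42299 in WT. The part of these markers in the germline rises was not tested.

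**Figure D4:**
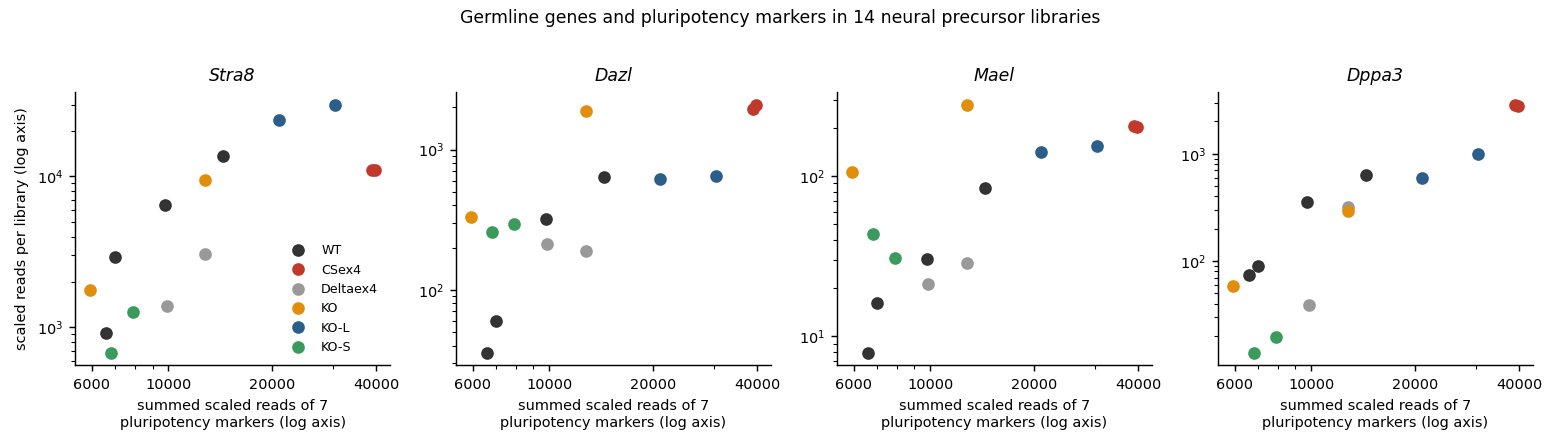
Scaled reads of Stra8, Dazl, Mael and Dppa3 (vertical log axis) against the summed scaled reads of 7 pluripotency markers (horizontal log axis) in the 14 NP libraries, colored by group. Dppa3 runs from 13.8 to 2868 along the marker sum, while the KO libraries lie above the other libraries of similar marker sum for Mael and Dazl.

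Across the 14 NP libraries the rank correlation with this marker sum was 0.89 for Ddx4, 0.85 for Dppa3, 0.84 for Stra8, 0.83 for Dmrt1, 0.77 for Sycp3, 0.76 for Dazl, 0.66 for Mael and 0.63 for Sycp1 (Spearman's rho, a description over libraries that share groups and scaling). With the neural markers Mael ran opposite (-0.93), as did Dazl (-0.87). Sox2, counted in the pluripotency sum, changed in the direction of the neural markers in the authors' deposited tables. It stood at -2.86 ± 0.34 in KO over WT replicates 1 and 2 and at 2.23 ± 0.22 in KO-S over KO. The sum is thus not a measure of pluripotency alone.

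The knock-out NP libraries were far apart for the germline genes. Library a had 9409 scaled reads of Stra8 and library b 1775, and the ratio of the higher to the lower library lay between 2.15 for Sycp3 and 8.25 for Sycp1. Pou5f1 differed in the same direction, with 2710.2 and 503. The neural markers summed to 3036 and 3488 scaled reads in KO against 12059.6 to 42299 in WT, and 6 of 7 were called lower than in WT replicates 1 and 2. The gonadal somatic markers summed to 7758 and 12959 in KO and to between 4885 and 6519 in WT, while Amh, one of the defining ones, had 1.14 to 11.6 scaled reads over the 14 NP libraries. Nr5a1, another, had 22.3 and 38.6 scaled reads in KO, against 0.65 to 5.02 in WT and at most 6.91 in the other groups. In the authors' deposited tables it was lower in WT replicates 3 and 4 (-3.86 ± 1.48, adjusted p 0.0312) and in KO-S (-4.77 ± 1.63, adjusted p 0.0131) than in KO (DESeq2). Nr5a1 missed the threshold in KO against WT replicates 1 and 2 (3.18 ± 1.49, adjusted p 0.119) and in KO-L against KO (-3.14 ± 1.36, 0.0770). Gata4 was the 1 gonadal marker called in the former (1.85 ± 0.35). In KO-L, KO-S and WT replicates 3 and 4 alike, 3 gonadal markers were called lower than in KO and 1 higher. Over all genes 13.8% to 18.0% were lower there and 10.9% to 16.4% higher. The higher one was Wt1 in the rescues and Sox9 in WT. The part of these cell type markers in the knock-out values was not tested. Against WT replicates 1 and 2, Dmrt1 and Dppa3 were called lower, where 9.85% of 16410 genes were. These are the WT libraries of the comparison that chose the genes, so low values against them are not independent of that choice. Dmrt1 had 351 and 113 scaled reads in KO, and Dppa3 had 293 and 58.0. The log2 fold changes were -2.82 ± 0.52 (adjusted p 1.54e-06) and -1.83 ± 0.63 (adjusted p 0.0221) in the authors' deposited table, by DESeq2. Leaving out KO library a or b moved the log2 ratio of recovered means of Dppa3 from -1.49 to -3.09 or -0.75.

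Set against WT replicates 3 and 4, the same KO libraries gave other calls. Dazl, Ddx4 and Mael were lower in WT than in KO, where 17.3% of 17214 genes were called lower. Dazl had 1890.3 and 332 scaled reads in KO against 35.3 and 60.3 in these WT libraries, and Mael 279 and 106 against 7.86 and 16.1. The log2 fold changes of WT over KO were -4.10 ± 1.31 for Dazl (adjusted p 0.00725), -3.93 ± 0.72 for Mael (6.66e-07) and -2.17 ± 0.64 for Ddx4 (0.00360) in the authors' deposited table, by DESeq2. Without KO library a the log2 ratios of recovered means were -2.79, -3.14 and -1.08, against -4.54, -4.01 and -2.43 with it. Dmrt1 and Dppa3, called in the other table, stood at 0.46 ± 0.54 and -0.70 ± 0.66 in this authors' deposited table (adjusted p 0.569 and 0.460, DESeq2). For Stra8, WT replicates 1 and 2 were above KO (KO over WT -1.21 ± 0.56, adjusted p 0.116) and WT replicates 3 and 4 below it (WT over KO -1.32 ± 1.49, adjusted p 0.551) in the authors' deposited tables (DESeq2), so its sign turned with the WT libraries. Mael was the 1 gene of which both KO libraries lay above all 4 WT libraries. In WT replicates 3 and 4 against KO, 5 of 7 pluripotency markers were called lower and 1, Sox2, higher. Of the 7 neural markers, 6 were called higher and 0 lower there (15.6% and 17.3% of all genes). The part of these markers in the germline values was not tested.

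The long rescue in NP had the most Stra8 and Dmrt1 of the 14 libraries. Stra8 had 29954 and 23634 scaled reads in KO-L, and Dmrt1 had 3960.2 and 2613, above all KO and all WT libraries. Dppa3 had 985 and 596, above both KO libraries. In the authors' deposited table against KO these genes stood at 2.70 ± 0.90 (Stra8, adjusted p 0.0143), 3.99 ± 0.27 (Dmrt1, 3.54e-47) and 2.51 ± 0.38 (Dppa3, 7.21e-10), by DESeq2, 3 of 8 genes where 10.9% of 16678 were called higher. Dazl, Mael and Sycp1 had no call, with -0.33 ± 1.02, -0.23 ± 0.47 and -0.96 ± 0.83 in the authors' deposited table. Without KO library a the log2 ratio of recovered means was 3.92 for Stra8 and 3.77 for Dppa3, against 2.26 and 2.17 with it, and without library b it was 1.51 and 1.43. In KO-L against KO 5 of 7 pluripotency markers were called higher and Klf4 lower (-2.15 ± 0.25), and 5 of 7 neural markers higher and Sox1 lower (-2.18 ± 0.38), in the authors' deposited table.

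The short rescue in NP had the fewest reads of Dppa3 and Dmrt1. Dppa3 had 19.5 and 13.8 scaled reads and Dmrt1 69.8 and 54.3, below all other NP libraries. Stra8 had 1256 and 675, below both KO libraries and, in 1 library, below the lowest WT library (916). Dazl, at 293 and 259.9, lay above WT replicates 3 and 4, as did Ddx4 and Mael. Relative to KO, the authors' deposited table called 5 of 8 genes lower by DESeq2, where 18.0% of 16253 genes were: Dppa3 (-3.04 ± 0.64), Mael (-2.23 ± 0.58), Stra8 (-2.15 ± 0.69), Dmrt1 (-1.71 ± 0.49) and Ddx4 (-1.26 ± 0.48), with adjusted p from 1.90e-05 to 0.0299. Without KO library a the log2 ratio of recovered means fell in size from -3.40 to -1.80 for Dppa3 and from -2.37 to -1.51 for Mael. It fell from -2.53 to -0.88 for Stra8, from -1.90 to -0.86 for Dmrt1 and from -1.57 to -0.22 for Ddx4. The sign could not turn, because the KO-S libraries of these genes lay below both KO libraries. All 7 neural markers were called higher in KO-S than in KO, and of the pluripotency markers Zfp42 (-1.24 ± 0.31), Tfcp2l1 (-1.34 ± 0.19) and Klf4 (-1.11 ± 0.20) were called lower and Sox2 (2.23 ± 0.22) higher in the authors' deposited table. The pluripotency sum was 7883 and 6840.2 scaled reads against 12799 and 5922 in KO, and the part of these markers was not tested.

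In NP the long and the short rescue differed for Dmrt1, Dppa3, Stra8 and Ddx4. KO-L minus KO-S was 5.70 ± 0.56 for Dmrt1 (adjusted p 2.00e-21), 5.55 ± 0.75 for Dppa3 (1.88e-11), 4.85 ± 1.14 for Stra8 (5.76e-04) and 2.14 ± 0.63 for Ddx4 (0.0101), 4 of 8 genes where 10.3% of 15615 passed. The KO-L and KO-S libraries of these genes did not overlap. For Mael it was 1.99 (95% interval 0.53 to 3.46, adjusted p 0.0676), for Dazl 1.20 (-1.61 to 4.00) and for Sycp1 0.26 (-1.95 to 2.47). KO-L also exceeded WT replicates 3 and 4, relative to KO, for Dmrt1, Ddx4, Mael and Dppa3, by 3.06 to 3.69 on the log2 scale (4 of 8, where 14.2% of 15673 passed). Those are the lower WT libraries, and against all 4 WT libraries KO-L overlapped for Ddx4 (493 and 370.3 against up to 435) and for Dppa3 (985 and 596 against up to 633). None of the 8 genes passed the same test between KO-S and those WT libraries, where 4.77% of 15819 genes did and 2 of the 8 had an unadjusted p under 0.05. The interval of that difference was -4.15 to -0.53 for Dppa3.

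The effects in the 2 cell types were compared by the same test, and no library is shared between them. For KO over WT, ESC minus NP was 3.59 ± 0.67 for Stra8, 3.11 ± 0.63 for Dmrt1, 2.27 ± 0.67 for Dppa3 and 1.86 ± 0.68 for Dazl, and these 4 of 8 passed, where 14.3% of 14631 genes did. The NP side uses the WT libraries that chose the genes, so these values are a description and not independent of that choice. For Mael the difference was 0.23 (-1.33 to 1.79). With the table of WT replicates 3 and 4 in its place, an alternative chosen after seeing the data, none of these 4 genes passed. The difference was then 1.07 ± 1.53 for Stra8, 0.76 ± 0.64 for Dmrt1, -0.27 ± 0.70 for Dppa3 and -1.43 ± 1.34 for Dazl, with adjusted p from 0.455 to 0.845. Ddx4 alone passed in that setting, at -1.79 ± 0.67 (adjusted p 0.0382), 1 of 8 where 22.4% of 14567 genes did. Which genes passed thus depended on the NP WT libraries used. For CSex4 over WT, ESC minus NP was -2.84 ± 0.48 for Dppa3 (adjusted p 9.03e-07), -2.73 ± 0.66 for Dazl (0.00205), -2.69 ± 0.80 for Mael (0.0210) and -1.97 ± 0.59 for Dmrt1 (0.0239), 4 of 8 where 4.97% of 14304 passed. The same WT replicates 1 and 2 stand on the NP side, and no table sets CSex4 against replicates 3 and 4. Of the 7 pluripotency markers, 3 were called lower in ESC CSex4 and 5 higher in NP CSex4. Medians over libraries, with the cell types scaled apart, were 193 scaled reads of Stra8 in ESC and 4773 in NP, and 1539 of Dppa3 in ESC and 306 in NP.

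Other genes of the same programs are given by count. Of 20 further genes of the piRNA pathway, 10 were called higher and 0 lower in ESC KO (11.0% and 7.27% of all genes tested), led by the germ granule gene Asz1 at 4.40 ± 0.82 in the authors' deposited table; the list median was 1.28, against 0.01 over all genes tested. Asz1 also led the list in NP KO against WT replicates 1 and 2, at 4.81 ± 0.91 in the authors' deposited table, where 3 were called higher and 3 lower (11.6% and 9.85% of all genes). Of 29 meiosis genes, 28 of which had an adjusted p there, 7 were called higher and 1 lower in ESC KO, led by the chromosome axis gene Hormad2 at 2.93 ± 0.40 in the authors' deposited table. Of these meiosis genes, 21 with an adjusted p, 8 were called lower and 2 higher in NP KO-S vs KO (18.0% and 16.4% of all genes), led by Meioc at -4.48 ± 0.38 in the authors' deposited table. In NP WT vs KO, 10 of the 24 with an adjusted p were called lower and 0 higher (17.3% and 15.6% of all genes). Of 11 primordial germ cell genes, 10 of which had an adjusted p, 6 were called higher and 0 lower in NP CSex4 (4.08% of all genes were higher). In NP KO-L vs KO 7 were called higher and 1 lower, Ifitm3 at -1.21 ± 0.20 in the authors' deposited table (10.9% and 13.8% of all genes). The list was led in both by Dppa5a (2.81 ± 0.32 and 2.63 ± 0.64 in the authors' deposited tables). In both comparisons 5 of 7 pluripotency markers were called higher too (0 and 1 lower), and their part was not tested. Of 10 spermatogonia genes, 3 were called higher and 1 lower in ESC KO (11.0% and 7.27% of all genes). Sohlh2 led them at 3.34 ± 0.34. In NP KO-S vs KO, 2 of the 9 with an adjusted p were called higher and 2 lower (16.4% and 18.0% of all genes). Sohlh2 led there at -4.26 ± 0.27. It alone of them was called in NP Deltaex4, the comparison that chose the genes, at -2.31 ± 0.46. These values are from the authors' deposited tables. Of 18 repressors of germline genes, 5 were called lower in ESC KO (7.27% of all genes), led by Tfdp1, the partner of E2F factors, at -0.74 ± 0.25 in the authors' deposited table, and none higher. The repressor with the largest change in NP KO was Cbx3, a heterochromatin protein, at -1.53 ± 0.34 in the authors' deposited table, and it was higher in KO-L (1.23 ± 0.20) and KO-S (1.61 ± 0.17) than in KO in the authors' deposited tables.

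The genes whose deposited log2 fold changes lay closest to those of Stra8 over all 13 comparisons were Rec114, Fkbp6 and Gpat2, with root mean square differences of 0.91, 0.92 and 1.04, against a median of 1.96 over 13586 genes. Closest to Dazl were Trpv4, M1ap and Tex19.1 (0.57, 0.61 and 0.64, median 1.77). Dmrt1 was closest to Rhd (0.98), to Dppa3 (1.02) and to Tdrd12 (1.03), and Dppa3 to Noxred1 (0.93), Stk31 (0.95) and Slc28a1 (0.99). The 13 comparisons share libraries, so these distances describe these tables only.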

How the data were processed

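The authors deposited 1 table per comparison, with DESeq2's column names per the file headers. Each holds the mean of normalized reads per gene (a signal averaged over libraries), a log2 fold change with its standard error, their ratio as a score, and a p-value with an adjusted p. The submitters' processing notes name TopHat, Bowtie, DESeq2, DiffBind, mm10 and dm3 without roles; versions, annotation and strand are not given in the sources used here. The region lists were deposited with the words DiffBind and FDR 5% per the file headers; whether the value per region is a p-value or an FDR is not given, so only positions were used.

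The analysis used Python 3.11.15 with numpy 2.4.6, pandas 2.3.3, scipy 1.17.1 and matplotlib 3.10.9. Calls are the authors' adjusted p under 0.05. No test was refitted, since the deposited values are no counts per library. Reads per library were recovered from the deposited means: each mean is a sum of whole reads times the weight of 1 read in each library, and weights were read from genes with a single read. The 60 library places of the 13 tables came from 32 libraries, and 3510 of 3539 trial entries with a mean of 10 to 20 (99.18%) had 1 solution. The log2 ratios of recovered means differed from the deposited fold changes by a median of 0.15 and at most 0.91. Library letters are arbitrary, except that a and b of NP WT are replicates 1 and 2. The deposited means summed to between 26085140 and 31499803 reads per table.

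Differences between fold changes were divided by the root of the summed squared standard errors, given a normal p and adjusted (Benjamini-Hochberg) over genes with a mean of at least 10 in both tables. Recovery and this test were checked on simulated data. The 8 genes, the other lists and the cell type markers were chosen with earlier results of these data known. Named were the 8 genes, Suz12, markers beside a germline result, and the 3 nearest genes by fold changes. For the other lists the called gene with the largest change was named in some of the comparisons. The alternatives were an adjusted p under 0.01, adjustment over every gene with a p-value or over genes with a mean of at least 10, leaving out either NP table of KO and WT, and shorter and longer region distances and a stricter region value. Leaving out single libraries, all 4 NP WT libraries for Deltaex4, and WT replicates 3 and 4 for the difference between cell types were added after seeing the data.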

Additional observations from a re-analysis of the deposited data

Results flagged for a closer look

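The difference between the effects in ESC and in NP was tested for the 8 genes, and 8 differences passed the adjusted p of 0.05. For KO over WT, ESC minus NP was 3.59 for Stra8, 3.11 for Dmrt1, 1.86 for Dazl and 2.27 for Dppa3 on the log2 scale. For CSex4 over WT it was -1.97 for Dmrt1, -2.73 for Dazl, -2.69 for Mael and -2.84 for Dppa3. Both NP effects use WT replicates 1 and 2, the libraries of the comparison that chose the genes, so these values are not independent of that choice. These replicates held more reads of all 8 genes than replicates 3 and 4, and the knock-out differences of these 4 genes did not pass against replicates 3 and 4.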

How the results depend on the processing

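No paired analysis was possible because the deposited tables hold fitted values without libraries, and the recovered libraries carry no replicate numbers that could be matched between groups. At an adjusted p under 0.01, gene and table pairs called higher in NP went from 7 to 4 of 40, and differences between ESC and NP from 8 to 5 of 16. With NP WT replicates 3 and 4 for the knock-out, an alternative chosen after seeing the data, the count was also 5, of which 4 are CSex4 differences that still use replicates 1 and 2. The knock-out differences went from 4 to 1, which was Ddx4 and none of the first 4. For the knock-out, ESC minus NP turned sign for Dazl (-1.43), Ddx4 (-1.79), Sycp3 (-0.79), Mael (-1.95) and Dppa3 (-0.27). Against all 4 WT libraries, NP Deltaex4 lay below WT for 0 of the 8 genes instead of 7. Single calls lost at an adjusted p under 0.01 were Dppa3 in ESC KO-L3D and NP KO, Ddx4 in NP CSex4 and KO-S, Mael in NP CSex4 and Stra8 in NP KO-L. Ddx4 in NP CSex4 was also lost when p-values were adjusted over every gene. The other counts of calls stayed within 1.5 times. Leaving out each library in turn kept the direction of all 30 called log2 ratios. That outcome was fixed in advance, because the compared libraries did not overlap in any of these 30. With 2 or 3 libraries a group, a gene that missed the threshold is not shown to be unchanged.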
